A study of Mus musculus with 12 samples.

Results

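Activity-regulated immediate early genes are genes that neurons switch on when they fire. The 33 genes described here were taken by symbol from a list of neuronal early and delayed activity genes, and all 33 were found among the 56980 gene rows of a hippocampal RNA-seq count table. All 33 also passed the filter on low counts, which left 19152 genes for testing. The table holds 12 libraries, each from the hippocampus of a different male mouse. Trem2-KO mice carried the AppNL-G-F knock-in together with a Trem2 knockout and were sampled at 9 months (3 mice) and at 3 months (3 mice). App-KI mice carried the AppNL-G-F knock-in with Trem2 intact and were sampled at 9 months (3 mice) and at 3 months (3 mice). AppNL-G-F places a humanised, mutated amyloid precursor protein under its own mouse promoter and leads to amyloid-β deposits. TREM2 is a lipid-sensing receptor of microglia. Every group carried the App knock-in, so age cannot be told apart from growing amyloid load, and a change with age is not a change of healthy ageing. The labels do not say which part of Trem2 was deleted. The handling of the mice before death, the hour of death and the RNA quality scores were not known for this work.

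When a neuron is excited, calcium entry and the MAP kinase cascade act on factors that are already in the nucleus, such as CREB and SRF, and these start transcription of the immediate early genes without new protein synthesis. Some products are transcription factors (the AP-1, EGR and NR4A families and NPAS4) that drive later genes. Others act directly on signalling and synapses, such as ARC, HOMER1 and the secreted factors BDNF, activin A and NPTX2, and the MAP kinase phosphatases turn the signal off again. Their mRNAs are short-lived, so in the hippocampus Fos and Arc are widely used to mark neurons that were active shortly before the tissue was taken. Several members, among them Jun, Dusp1 and the Gadd45 genes, also respond to stress in cells other than neurons.

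Promoter sequence is shown for members given in full below whose window holds the full binding motif of CREB or the motif of SRF, because those motifs connect these genes to neuronal activity. The RefSeq promoter table (GRCm38.p6, 250 bases before and 50 after each start) matched 25 of the 33 members with 36 windows, and the other members, Arc, Egr1, Egr3, Dusp4, Ier2, Trib1, Nptx2 and Sik1, are named only. The full cAMP response element TGACGTCA was found in 11.1% of the members' windows and in 1.79% of all 32851 windows. The members that held it were Arl4d, Btg2, Dusp1 and Plk2. The shorter element TGACG, searched on both strands and contained in every full element, was found for 18 of the 25 members, in 55.6% of their windows and 20.8% of all windows. The CArG box, to which SRF binds, was found for 2 of the 25 members, Dusp5 and Egr2. It was in 5 of the members' windows, 13.9% of them, and in 1.63% of all windows. Apart from that of Dusp5, these were windows of Egr2, several of which overlap and hold the same box. The EGR site GCGNGGGCG was found in 19.4% of the members' windows and 5.55% of all, and the AP-1 site TGANTCA in 2.78% and 7.81%. Windows of 1 gene overlap and promoters of like base composition share motifs, so these shares are a description, and a match is not a bound site. Dusp5, which encodes a nuclear phosphatase of ERK, has CArG boxes starting 82 and 72 bases before the start, shown in capitals in chr19:53528895-53529194, plus strand. Plk2, which encodes a kinase that weakens overactive synapses, has a cAMP response element starting 62 bases before the start, shown in capitals in chr13:110394794-110395093, plus strand.

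Dusp5: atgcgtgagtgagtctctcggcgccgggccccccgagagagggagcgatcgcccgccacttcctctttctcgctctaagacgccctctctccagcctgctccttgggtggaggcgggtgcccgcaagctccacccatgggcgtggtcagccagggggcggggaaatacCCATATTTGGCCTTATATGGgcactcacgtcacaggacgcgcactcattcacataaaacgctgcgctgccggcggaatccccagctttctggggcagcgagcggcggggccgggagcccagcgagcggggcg
Plk2: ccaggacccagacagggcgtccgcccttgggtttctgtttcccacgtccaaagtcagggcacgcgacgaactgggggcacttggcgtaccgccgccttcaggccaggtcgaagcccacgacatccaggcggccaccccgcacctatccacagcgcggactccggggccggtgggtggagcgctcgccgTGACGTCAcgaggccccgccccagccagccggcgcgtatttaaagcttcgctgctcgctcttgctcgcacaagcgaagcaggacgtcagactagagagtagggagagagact

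Total counts ran from 14627892 to 24594655 per library, and the 33 genes took 0.179% to 0.229% of them. The limit set by a count of 0, 3 counts, was 0.122 to 0.206 CPM (counts relative to scaled library size), and the lowest count of any member in any library was 51, for Egr2. Trem2 itself read 3.62 to 3.83 CPM in Trem2-KO mice and 49.8 to 55.6 CPM in App-KI mice at 9 months, and 1.85 to 2.17 CPM in Trem2-KO mice and 8.05 to 10.4 CPM in App-KI mice at 3 months. No gene of the dentate granule, CA1 and CA3 marker lists was at 0 in any library. Markers of neighbouring tissue were detected as well, with cortical markers summing to 140 to 192 CPM and striatal markers to 108 to 176 CPM. Detection of hippocampal markers therefore does not tell how much neighbouring tissue a library held. Choroid plexus marker genes summed to between 341 and 7765 CPM and varied about as widely within groups as between them. In bulk tissue, fewer cells of a type and less RNA per cell cannot be told apart. Counts were made per gene, so the short activity-induced form of Homer1 and the separate Bdnf transcripts were not resolved.

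One library stood apart for these genes. App-KI 9-month replicate 3 had the highest value of its group for 26 of the 33 members and the lowest for 1, whereas it was the highest of its group for 34% of all tested genes. Fos, the AP-1 subunit most used as an activity marker, read 16.9, 17.8 and 31.7 CPM in the App-KI 9-month mice, and Arc, whose protein removes AMPA receptors from synapses, read 118, 139.8 and 203 CPM. Egr1 read 154, 169 and 230.1 CPM and Npas4, a transcription factor induced by calcium entry in neurons, 7.96, 8.47 and 17.8 CPM in the same mice. In each of these genes the high value belongs to replicate 3, and the other App-KI 9-month mice lie close together. The same library had the lowest total count of its group, 15360564, and the highest sum of 14 chaperone genes, 8121 CPM, against 6259 and 6642 CPM in the other App-KI 9-month libraries. The part of depth or of chaperone level in the high values was not tested. The other groups had less marked leaders. Trem2-KO 9-month replicate 2 was highest for 21 members, App-KI 3-month replicate 1 for 20 and Trem2-KO 3-month replicate 2 for 18.

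**Figure D1:**
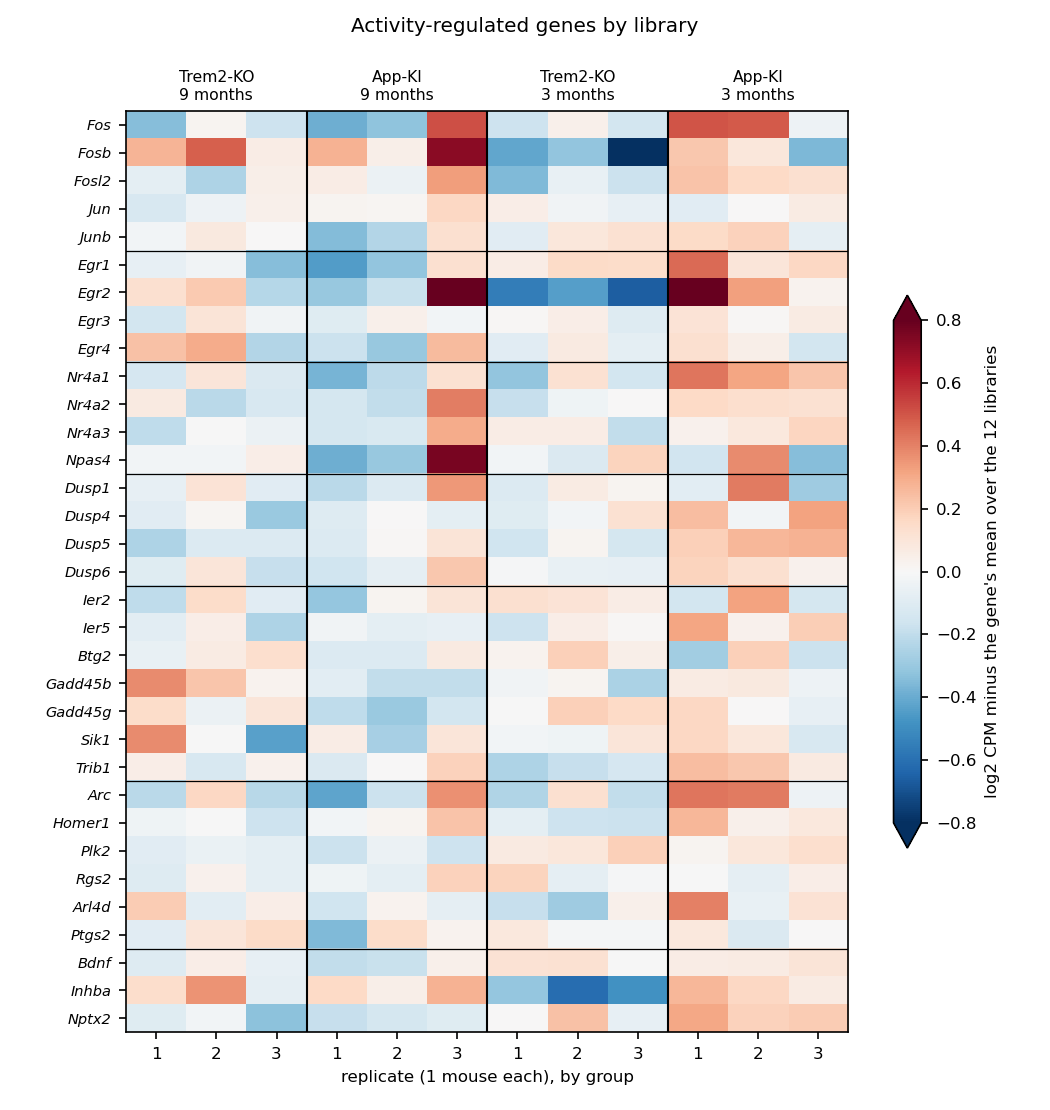
Heat map of the 33 genes (rows, ordered by role) in the 12 libraries (columns, 3 mice per group); colour is log2 CPM minus the gene's mean over the 12 libraries, from -0.8 to 0.8 with values beyond in the end colours. App-KI 9-month replicate 3 holds its group's highest value for 26 of the 33 genes, and Inhba and Egr2 are blue in all Trem2-KO 3-month libraries.

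Part of the members varied together with Fos between mice of a group. In all 4 groups, 7 of the 32 members other than Fos (21.9%) had their highest value in the same library as Fos, compared with 0.968% of the other tested genes. These were Fosb, Egr1, Egr2, Egr4, Nr4a1, Arc and Nptx2. A further 10 members (31.2%) shared the highest library with Fos in 3 groups, compared with 8.73% of the other genes. Another 8 members (25%) shared it in 2 groups, compared with 30.1% of the other genes. The remaining 7 (21.9%) shared it in only 1 group, compared with 40.3%, and Npas4 was among them. Over 12 libraries these counts describe this set of mice, and genes of 1 library share its depth and its dissection.

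The spread between mice of a group depended on the gene. Against the 1000 genes nearest in average level, 27 of the 33 members had a within-group SD of log2 CPM above the median and 13 lay at or above the 90th percentile. The members' median percentile was 86.9. Arc stood at the 99.9th percentile with an SD of 0.28, Egr1 at the 98.8th with 0.20, Nr4a2 at the 98.5th with 0.19, Dusp1 at the 98.3rd with 0.24 and Fos at the 98.1st with 0.31. Other early genes stood lower, with Egr3 at the 72.0th, Ier2 at the 70.2nd and Jun at the 62.7th. Speed of induction was not measured. At the other end were Trib1, Gadd45b and Gadd45g, which lay below the 30th percentile, and Plk2, whose SD of 0.055 put it at the 37.3rd. Without App-KI 9-month replicate 3 the number at or above the 90th percentile was 7 in place of 13.

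**Figure D2:**
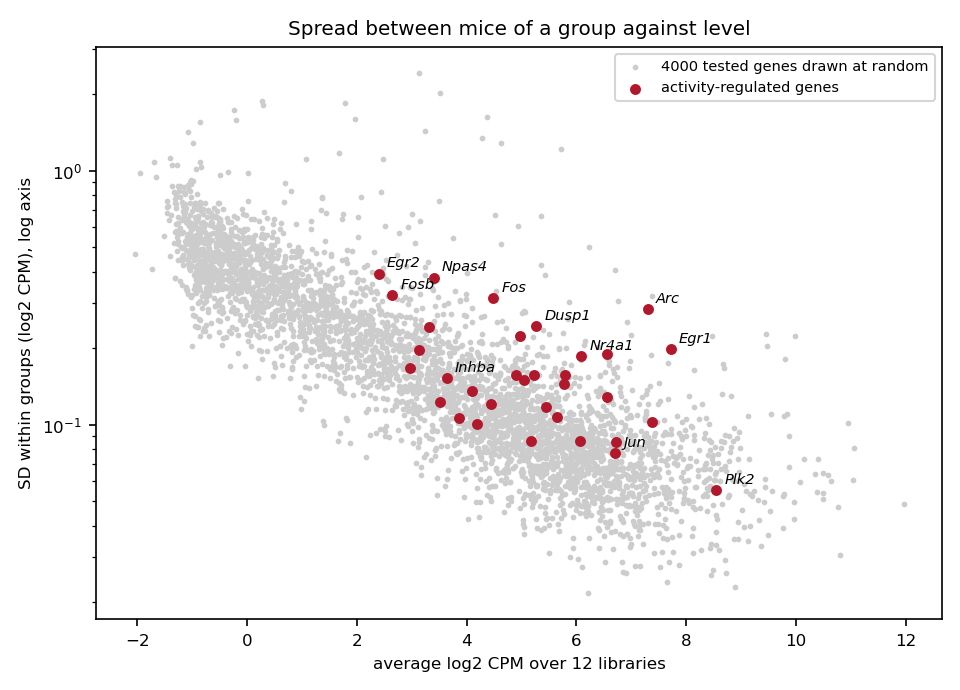
Within-group SD of log2 CPM (vertical, log axis, 8 residual degrees of freedom over 12 libraries) against average log2 CPM (horizontal) for the 33 genes in red and a random draw of tested genes in grey. Arc, Egr1 and Fos lie at the upper edge of genes of their level and Plk2 within the cloud.

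The first question was how these genes differed in mice without Trem2 at 3 months, the onset of amyloid deposition. Inhba and Dusp5 were lower in Trem2-KO than in App-KI hippocampus and were the 2 members called at an adjusted p under 0.05 (edgeR's quasi-likelihood test, Benjamini-Hochberg over all 19152 genes), where 0.423% of all tested genes were called lower and 0.59% in either direction. At an unadjusted p under 0.05, 10 members were lower and 0 higher, compared with 6.02% and 5.21% of all tested genes. The log2 fold change was negative for 25 of 33 members and for 49.3% of all genes, with a median of -0.13 over the members and 0.0028 over all genes. In 9 members every Trem2-KO mouse lay below every App-KI mouse, which held for 8.94% of all genes.

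Inhba encodes the subunit of activin A, a secreted factor induced by synaptic activity. It read 9.94, 8.04 and 8.77 CPM in Trem2-KO mice and 14.8, 13.8 and 12.9 CPM in App-KI mice at 3 months, a log2 fold change of -0.64 ± 0.12 (SE, edgeR adjusted p = 0.018). All 3 Trem2-KO values lie below all 3 App-KI values. The adjusted p was between 0.0686 and 0.115 without App-KI 3-month replicate 1 or 2 or Trem2-KO 3-month replicate 2 or 3, with log2 fold changes of -0.65 to -0.58. Dusp5 read 32.3, 36.6 and 32.7 CPM in Trem2-KO mice and 41.1, 43.4 and 43.9 CPM in App-KI mice (log2 fold change -0.34 ± 0.07, adjusted p = 0.042). These groups do not overlap either. Its adjusted p was 0.0559 to 0.222 without any 1 of the 6 libraries compared or without App-KI 9-month replicate 2, which enters through the shared spread.

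The members next in order of p did not pass the adjustment. Homer1, a scaffold of the postsynaptic density, read 158, 149 and 148 CPM in Trem2-KO mice and 201, 172 and 177 CPM in App-KI mice (log2 fold change -0.27 ± 0.07, adjusted p = 0.081). Trib1, a pseudokinase that brings targets to a ubiquitin ligase, read 12.2, 12.7 and 13.2 CPM in Trem2-KO mice and 17.2, 16.8 and 15.2 CPM in App-KI mice (log2 fold change -0.37 ± 0.10, adjusted p = 0.12). Fosl2, an AP-1 subunit, read 43.0, 52.7 and 48.8 CPM in Trem2-KO mice and 64.3, 61.4 and 60.1 CPM in App-KI mice (log2 fold change -0.36 ± 0.10, adjusted p = 0.12). In all of these genes the Trem2-KO mice lie below the App-KI mice without overlap. The same holds for Egr2, a zinc-finger factor with the most negative estimate and a low count, which read 3.49, 3.78 and 3.23 CPM in Trem2-KO mice and 9.29, 6.51 and 5.27 CPM in App-KI mice (log2 fold change -1.01 ± 0.30, adjusted p = 0.18). It holds too for Nr4a1, an orphan nuclear receptor, with 54.7, 74.0 and 61.5 CPM in Trem2-KO mice and 91.7, 84.8 and 79.6 CPM in App-KI mice (log2 fold change -0.42 ± 0.14, adjusted p = 0.26).

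The textbook activity markers overlapped between the genotypes at 3 months. Fos read 19.8, 22.8 and 20.05 CPM in Trem2-KO mice and 31.4, 31.2 and 21.6 CPM in App-KI mice (log2 fold change -0.42 ± 0.25, adjusted p = 0.59). Arc read 133, 172 and 138 CPM in Trem2-KO mice and 213, 210.3 and 153 CPM in App-KI mice (log2 fold change -0.38 ± 0.23, adjusted p = 0.62). In both genes 2 App-KI mice were above all Trem2-KO mice and the third, replicate 3, fell among them. Fosb, an AP-1 subunit, read 4.59, 4.92 and 2.89 CPM in Trem2-KO mice and 7.17, 6.56 and 4.78 CPM in App-KI mice (log2 fold change -0.58 ± 0.22, adjusted p = 0.31). Npas4 read 10.3, 9.63 and 11.9 CPM in Trem2-KO mice and 9.38, 13.6 and 8.24 CPM in App-KI mice, and the ranges overlapped. Egr1 read 219, 234 and 232 CPM in Trem2-KO mice and 287, 224 and 236 CPM in App-KI mice, again with overlap. Bdnf read 72.1, 72.5 and 66.4 CPM in Trem2-KO mice and 69.5, 69.8 and 71.5 CPM in App-KI mice, and the ranges overlapped.

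By role, the count at an unadjusted p under 0.05 at 3 months was 2 of 5 AP-1 subunits, 1 of 4 EGR factors, 1 of the 4 NR4A and NPAS4 factors, 1 of 4 MAP kinase phosphatases, 2 of 7 other early regulators, 2 of 6 synaptic and signalling effectors and 1 of 3 secreted factors, each of them lower in Trem2-KO. The number of members called depended on the analysis. It was 6 with DESeq2 (Fosl2, Egr2, Nr4a1, Dusp5, Homer1 and Inhba), which called 259 genes in all where edgeR called 113. It was 0 to 5 when each library was left out in turn, with 5 (Fosl2, Egr2, Dusp5, Homer1 and Inhba) without App-KI 9-month replicate 3, where 0.575% of all genes were called lower. Marker lists outside the activity genes were compared as well. The 14 chaperones summed to 5068 to 5289 CPM in Trem2-KO mice and 6483 to 7588 CPM in App-KI mice, with 5 called lower and all 14 estimates negative. Microglial markers summed to 556 to 581 CPM in Trem2-KO mice and 588 to 614 CPM in App-KI mice, with 0 of 13 called by edgeR and 4 lower at an unadjusted p under 0.05. Cortical markers summed to 173 to 178 CPM in Trem2-KO mice and 186 to 192 CPM in App-KI mice. Of these 6 markers 0 were called, with 2 lower at an unadjusted p under 0.05. Striatal markers summed to 110 to 123 CPM in Trem2-KO mice and 113 to 152 CPM in App-KI mice. Of these 7 markers 0 were called and 1 was lower at an unadjusted p under 0.05, with a median log2 fold change of -0.33. Endothelial markers summed to 147 to 162 CPM in Trem2-KO mice and 173 to 176 CPM in App-KI mice, with 1 of 6 called lower. Excitatory neuron markers overlapped, at 8195 to 8278 CPM in Trem2-KO mice and 7604 to 8227 CPM in App-KI mice, with 0 of 7 called. Of 15 circadian clock genes, 0 were called. At an unadjusted p under 0.05, 3 clock genes were higher and 4 lower, compared with 5.21% and 6.02% of all tested genes. Thalamus and habenula markers summed to 77 to 89 CPM in Trem2-KO mice and 86 to 91 CPM in App-KI mice. Of these 5 markers 0 were called, with 3 lower and 0 higher at an unadjusted p under 0.05. The part of these lists in the members' difference was not tested.

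**Figure D3:**
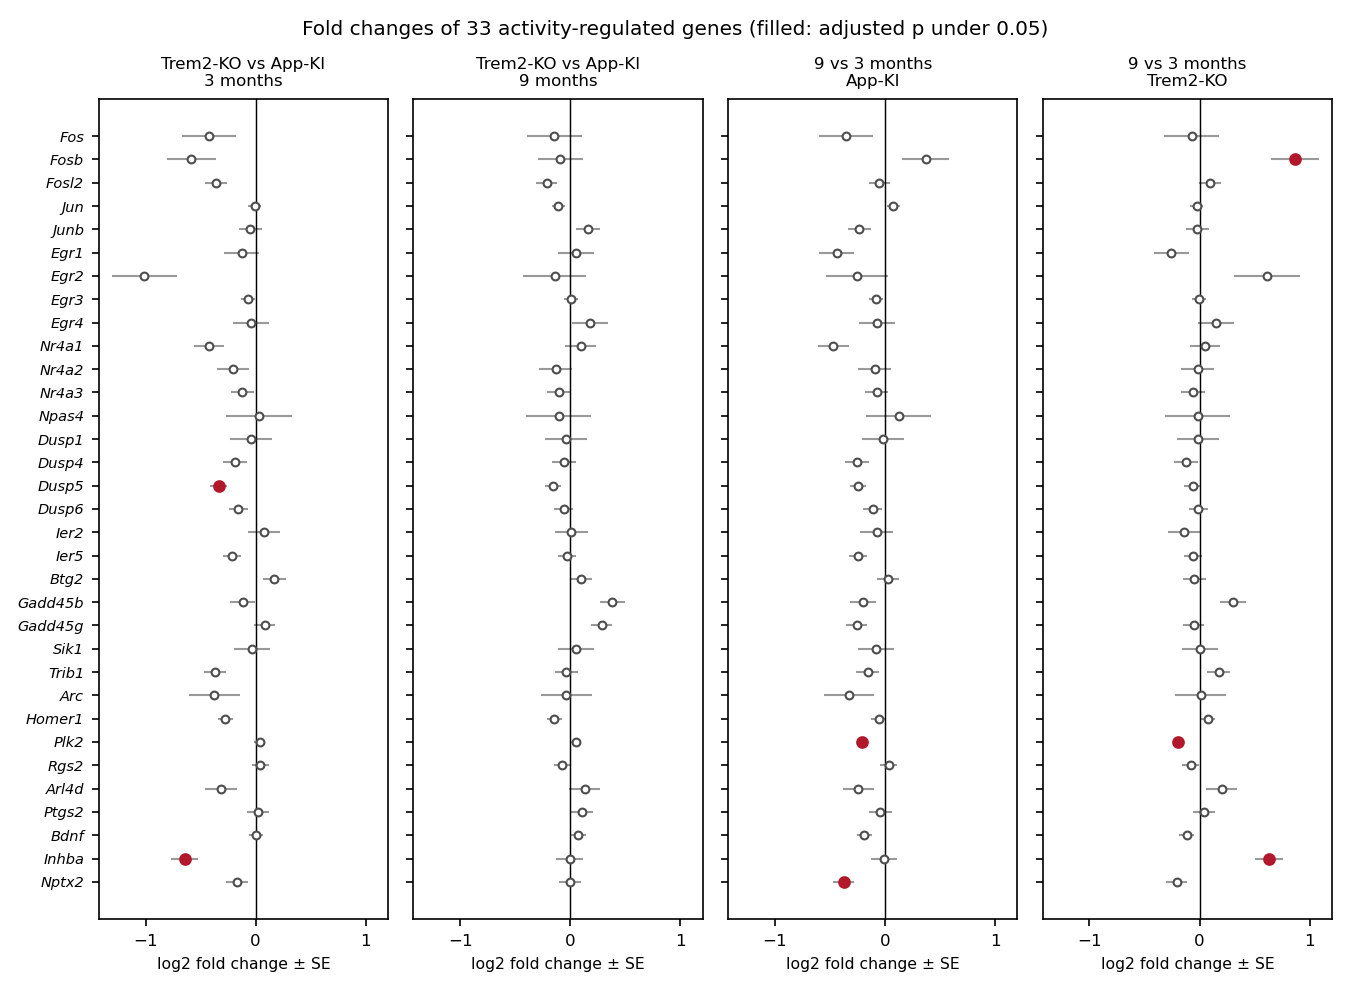
Log2 fold change ± SE (horizontal; Trem2-KO over App-KI, then 9 over 3 months) of the 33 genes in the 4 pairwise comparisons; filled points have an edgeR adjusted p under 0.05. At 3 months 25 of 33 estimates lie left of 0 for Trem2-KO against App-KI; at 9 months 19 do.

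At 9 months, in the middle stage of amyloid deposition, no member was called between Trem2-KO and App-KI hippocampus by edgeR or by DESeq2, while edgeR called 2.08% of all tested genes. At an unadjusted p under 0.05, 2 members were lower (Fosl2 and Homer1) and 2 higher (Gadd45b and Gadd45g), 4 of 33 in all, compared with 13.6% of all genes. The estimate was negative for 19 members and for 48.2% of all genes, with a members' median of -0.03. Groups did not overlap for 1 member below and 2 above, which held for 9.04% and 8.28% of all genes. Inhba read 13.6, 15.9 and 11.7 CPM in Trem2-KO mice and 13.8, 12.7 and 14.96 CPM in App-KI mice (log2 fold change -0.01 ± 0.12). The App-KI range lies within the Trem2-KO range.

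Gadd45b and Gadd45g encode stress sensors that also take part in activity-induced DNA demethylation. Gadd45b read 14.7, 13.2 and 11.6 CPM in Trem2-KO mice and 10.7, 9.87 and 9.84 CPM in App-KI mice at 9 months (log2 fold change 0.38 ± 0.12, adjusted p = 0.10). Gadd45g read 20.2, 17.7 and 19.5 CPM in Trem2-KO mice and 15.8, 14.9 and 16.5 CPM in App-KI mice (log2 fold change 0.29 ± 0.10, adjusted p = 0.15). Both genes were higher in every Trem2-KO mouse than in any App-KI mouse, and neither passed the adjustment. Dusp5 was the only member lower without overlap, though by a margin within the rounding, at 30.4, 33.4 and 33.5 CPM in Trem2-KO mice and 33.5, 36.3 and 38.8 CPM in App-KI mice (log2 fold change -0.16 ± 0.08, adjusted p = 0.37). Homer1 read 163, 166 and 149 CPM in Trem2-KO mice and 165, 169 and 196 CPM in App-KI mice, and Fosl2 51.9, 46.3 and 56.6 CPM in Trem2-KO mice and 57.3, 53.2 and 69.3 CPM in App-KI mice. In Homer1 and Fosl2 the App-KI value above the others is replicate 3. The same library is the highest for Fosb, at 7.46, 8.63 and 6.42 CPM in Trem2-KO mice and 7.49, 6.38 and 10.2 CPM in App-KI mice, and for Trib1, at 15.05, 13.2 and 14.8 CPM in Trem2-KO mice and 13.3, 14.5 and 16.5 CPM in App-KI mice. Without that library the members' median was 0.11, and 0 members were called, where 0.89% of all genes were called. At an unadjusted p under 0.05, 0 members were then lower and 5 higher, compared with 5.41% and 5.17% of all genes. That library was singled out after its values were seen. Leaving out a group's highest mouse lowers that group's mean by construction, so these counts show the weight of 1 mouse, not a finding. Chaperones again summed lower, at 5167 to 5446 CPM in Trem2-KO mice and 6259 to 8121 CPM in App-KI mice, and microglial markers were at 900 to 962 CPM in Trem2-KO mice and 1545 to 1660 CPM in App-KI mice. Meningeal fibroblast markers summed to 174 to 243 CPM in Trem2-KO mice and 121 to 147 CPM in App-KI mice, without overlap, with 0 of 6 called by edgeR and 5 higher at an unadjusted p under 0.05. Mural cell markers were at 185 to 225 CPM in Trem2-KO mice and 142 to 197 CPM in App-KI mice (1 of 6 called higher), and endothelial markers at 175 to 199.5 CPM in Trem2-KO mice and 158 to 179 CPM in App-KI mice (0 of 6 called, 2 higher at an unadjusted p under 0.05). Of 15 circadian clock genes, 1 was called higher in Trem2-KO mice. At an unadjusted p under 0.05, 3 clock genes were higher and 5 lower, compared with 13.6% of all genes in either direction. Of 5 thalamus and habenula markers, 1 was called higher, with 2 higher and 0 lower at an unadjusted p under 0.05. The part of these lists in the values of Gadd45b, Gadd45g or any other member was not tested.

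The next question was how the genes differed between 9 and 3 months in App-KI mice. Plk2 and Nptx2 were lower at 9 months and were the 2 members called, where 2.71% of all genes were called lower and 6.66% in either direction. At an unadjusted p under 0.05, 10 members were lower and 0 higher, compared with 8.36% and 8.72% of all genes, and 28 of 33 estimates were negative (50.3% of all genes), with a median of -0.11. In 8 members every 9-month mouse lay below every 3-month mouse, compared with 11.5% of all genes. This comparison shares the App-KI 3-month libraries with the 3-month genotype comparison, and other pairwise comparisons with a group in common likewise share its 3 libraries, so values that stand side by side in them are not independent.

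Plk2 read 331, 361 and 333 CPM at 9 months and 378, 397 and 408 CPM at 3 months in App-KI mice (log2 fold change -0.21 ± 0.05, adjusted p = 0.013). The change is small, but the groups do not overlap and the mice of each group lie close together. Nptx2, a pentraxin secreted by excitatory neurons that clusters AMPA receptors on interneurons, read 19.1, 19.7 and 20.3 CPM at 9 months and 26.9, 24.7 and 25.0 CPM at 3 months (log2 fold change -0.38 ± 0.10, adjusted p = 0.021). The App-KI groups do not overlap for Nptx2 either. Plk2 had an adjusted p of 0.0851 without App-KI 3-month replicate 3 and 0.0585 without App-KI 9-month replicate 1. Nptx2 had 0.0513 to 0.086 without App-KI 3-month replicate 1 or 3 or App-KI 9-month replicate 1 or 2.

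Members just outside the call included Dusp5 and Nr4a1. Dusp5 read 33.5, 36.3 and 38.8 CPM at 9 months and 41.1, 43.4 and 43.9 CPM at 3 months (log2 fold change -0.24 ± 0.07, adjusted p = 0.057). Nr4a1 read 52.6, 58.8 and 74.2 CPM at 9 months and 91.7, 84.8 and 79.6 CPM at 3 months (log2 fold change -0.47 ± 0.14, adjusted p = 0.083). Neither pair of groups overlaps. DESeq2 called Nr4a1 lower (adjusted p = 0.00191). With no filter on low counts, edgeR called both Nr4a1 (adjusted p = 0.0492) and Dusp5 (adjusted p = 0.0452). Ier5, an early gene linked to the heat shock response, was lower by a log2 fold change of -0.25 ± 0.08 (adjusted p = 0.087), and Bdnf, the neurotrophin of activity-dependent plasticity, read 58.1, 58.8 and 68.4 CPM at 9 months and 69.5, 69.8 and 71.5 CPM at 3 months (log2 fold change -0.19 ± 0.07, adjusted p = 0.11). Gadd45g read 15.8, 14.9 and 16.5 CPM at 9 months and 20.5, 18.3 and 17.5 CPM at 3 months (log2 fold change -0.26 ± 0.10, adjusted p = 0.13). The groups are apart for these members too, and none of them passed the adjustment in the main edgeR fit. Ier5 passed it in edgeR with no filter on low counts (adjusted p = 0.0208).

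For several members the result turned on App-KI 9-month replicate 3. Over all libraries Egr1 read 154, 169 and 230.1 CPM at 9 months and 287, 224 and 236 CPM at 3 months (log2 fold change -0.44 ± 0.16, adjusted p = 0.19). Fos read 16.9, 17.8 and 31.7 CPM at 9 months and 31.4, 31.2 and 21.6 CPM at 3 months (log2 fold change -0.35 ± 0.25, adjusted p = 0.56). Without that library 9 members were called lower, Fos, Junb, Egr1, Nr4a1, Nr4a2, Dusp5, Plk2, Bdnf and Nptx2, where 2.09% of all 19656 genes tested in that fit were called lower. Fos then had a log2 fold change of -0.70, Egr1 of -0.63, Nr4a1 of -0.62, Junb of -0.39 and Nr4a2 of -0.32, and the members' median was -0.25, with 17 members at an unadjusted p under 0.05 lower (8.39% of all genes). The library was singled out after its values were seen, and leaving out the highest mouse of a group lowers that group's mean and its spread by construction. The 9 calls are therefore a measure of how far 1 mouse sets this result and not a finding. Leaving out other libraries 1 at a time gave 0 to 3 members called.

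**Figure D4:**
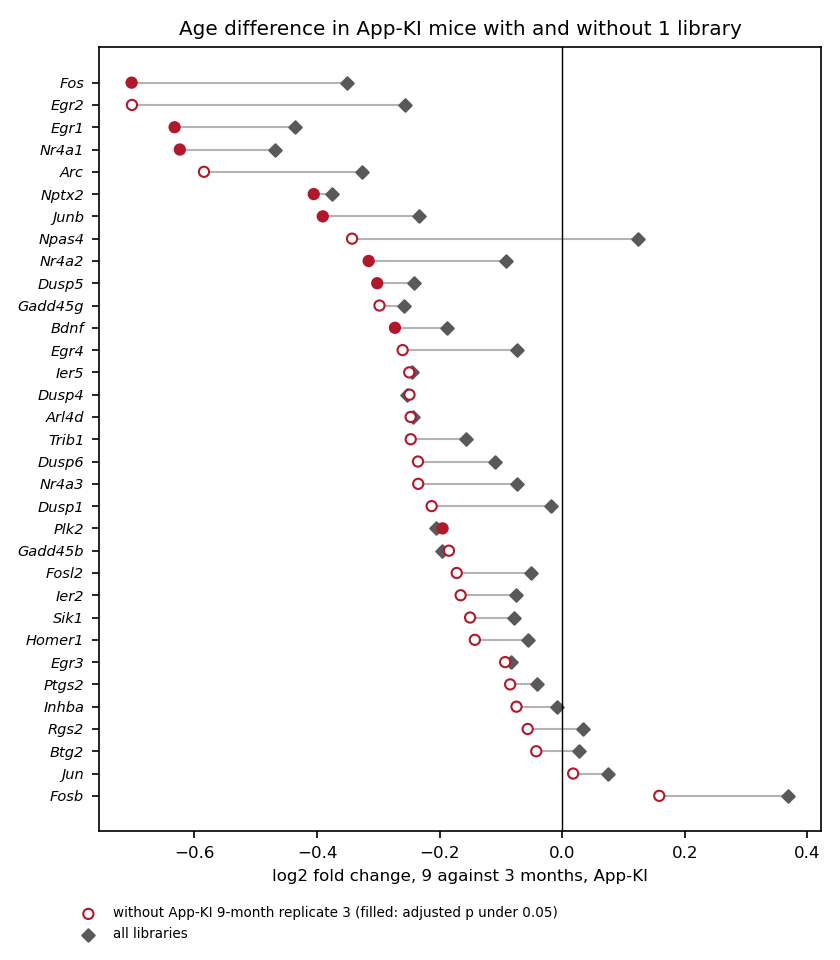
Log2 fold change of 9 over 3 months in App-KI mice (horizontal) for the 33 genes, from all libraries (diamonds) and without App-KI 9-month replicate 3 (circles, filled where the edgeR adjusted p is under 0.05). The median moved to -0.25 without that library, against -0.11 with all libraries, and 9 members in place of 2 were called.

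Cell-type markers also differed with age in App-KI mice. Microglial markers summed to 1545 to 1660 CPM at 9 months and 588 to 614 CPM at 3 months, with 13 of 13 called higher. Astrocyte markers summed to 4802 to 5036 CPM at 9 months and 3081 to 3295 CPM at 3 months, with 3 of 8 called higher. Inhibitory neuron markers summed to 637 to 724 CPM at 9 months and 715 to 794 CPM at 3 months, with 3 of 8 called lower. Excitatory neuron markers had 2 of 7 called lower. Cortical markers summed to 158 to 177 CPM at 9 months and 186 to 192 CPM at 3 months, with 1 of 6 called lower. CA1 markers summed to 727 to 770 CPM at 9 months and 778 to 809 CPM at 3 months. Of these 6 markers 2 were called lower, and of 7 oligodendrocyte markers 0. The part of these lists in the members' differences was not tested.

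In Trem2-KO mice the same age comparison gave 3 members called: Inhba and Fosb were higher at 9 months and Plk2 lower, where 5.68% of all genes were called higher, 3.02% lower and 8.7% in either direction. At an unadjusted p under 0.05, 3 members were higher and 2 lower, compared with 12.7% and 9.92% of all genes, and the age groups were apart for 5 members above and 2 below, compared with 13.5% and 11.9%. Inhba read 13.6, 15.9 and 11.7 CPM at 9 months and 9.94, 8.04 and 8.77 CPM at 3 months (log2 fold change 0.63 ± 0.12, adjusted p = 0.003). The age groups do not overlap, and Inhba was called in all 12 fits that left out 1 library. Fosb read 7.46, 8.63 and 6.42 CPM at 9 months and 4.59, 4.92 and 2.89 CPM at 3 months (log2 fold change 0.86 ± 0.22, adjusted p = 0.021). The 9-month mice were again all above the 3-month mice. Leaving out Trem2-KO 3-month replicate 3, the lowest library, gave an adjusted p of 0.0987, and leaving out Trem2-KO 9-month replicate 2, the highest, gave 0.0866.

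Plk2 read 350.4, 359 and 353 CPM at 9 months and 392, 397 and 425 CPM at 3 months in Trem2-KO mice (log2 fold change -0.19 ± 0.05, adjusted p = 0.018), with no overlap. Leaving out the same libraries gave an adjusted p of 0.123 and 0.0505. Plk2 was thus called lower at 9 months in both genotypes, in groups that share no library. Both tests came from the same fit and drew on a shared estimate of spread, so they are not fully separate. The difference between the genotypes in the change of Plk2 was 0.01 ± 0.07. Nptx2 read 20.3, 21.4 and 17.2 CPM at 9 months and 21.7, 25.5 and 20.8 CPM at 3 months (log2 fold change -0.21 ± 0.10, adjusted p = 0.21), so the Trem2-KO age groups overlapped. Gadd45b read 14.7, 13.2 and 11.6 CPM at 9 months and 11.1, 11.5 and 9.49 CPM at 3 months (log2 fold change 0.30 ± 0.11, adjusted p = 0.11). Every 9-month mouse was above every 3-month mouse for Gadd45b. In App-KI mice Gadd45b ran the other way, at 10.7, 9.87 and 9.84 CPM at 9 months and 11.9, 11.9 and 11.02 CPM at 3 months, and was not called. Gadd45g read 20.2, 17.7 and 19.5 CPM at 9 months and 18.2, 20.9 and 20.4 CPM at 3 months in Trem2-KO mice, with overlap.

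Fos read 17.5, 22.6 and 19.7 CPM at 9 months and 19.8, 22.8 and 20.05 CPM at 3 months in Trem2-KO mice, and Arc 136, 177 and 135 CPM at 9 months and 133, 172 and 138 CPM at 3 months. Npas4 read 10.3, 10.3 and 10.9 CPM at 9 months and 10.3, 9.63 and 11.9 CPM at 3 months. For these markers the Trem2-KO age groups cover almost the same range, and the median over all 33 members was -0.01. Egr1 was lower without overlap, at 201, 206 and 166 CPM at 9 months and 219, 234 and 232 CPM at 3 months, without passing the adjustment (adjusted p = 0.39). Homer1 read 163, 166 and 149 CPM at 9 months and 158, 149 and 148 CPM at 3 months, and the ranges overlapped. Nr4a1 read 62.2, 72.8 and 62.8 CPM at 9 months and 54.7, 74.0 and 61.5 CPM at 3 months, and Bdnf 62.0, 69.1 and 63.5 CPM at 9 months and 72.1, 72.5 and 66.4 CPM at 3 months, with overlap in both. Over the same comparison CA1 markers summed to 629 to 708 CPM at 9 months and 764 to 827 CPM at 3 months. Of these 6 markers 4 were called lower, and of 7 excitatory neuron markers 3. Inhibitory neuron markers had 2 of 8 called lower, cortical markers 3 of 6 and oligodendrocyte markers 2 of 7. CA1, excitatory, inhibitory and cortical markers thus had genes called lower with age in both genotypes. Microglial markers summed to 900 to 962 CPM at 9 months and 556 to 581 CPM at 3 months, and astrocyte markers to 4119 to 4435 CPM at 9 months and 2939 to 3152 CPM at 3 months, with 4 of 8 called higher. Endothelial markers summed to 175 to 199.5 CPM at 9 months and 147 to 162 CPM at 3 months, with 2 of 6 called higher. Meningeal fibroblast markers were at 174 to 243 CPM at 9 months and 121 to 185 CPM at 3 months (2 of 6 called higher), and mural cell markers at 185 to 225 CPM at 9 months and 135 to 192 CPM at 3 months (1 of 6 called higher), both with overlapping sums. The part of these lists in the members' values, Inhba and Fosb included, was not tested.

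**Figure D5:**
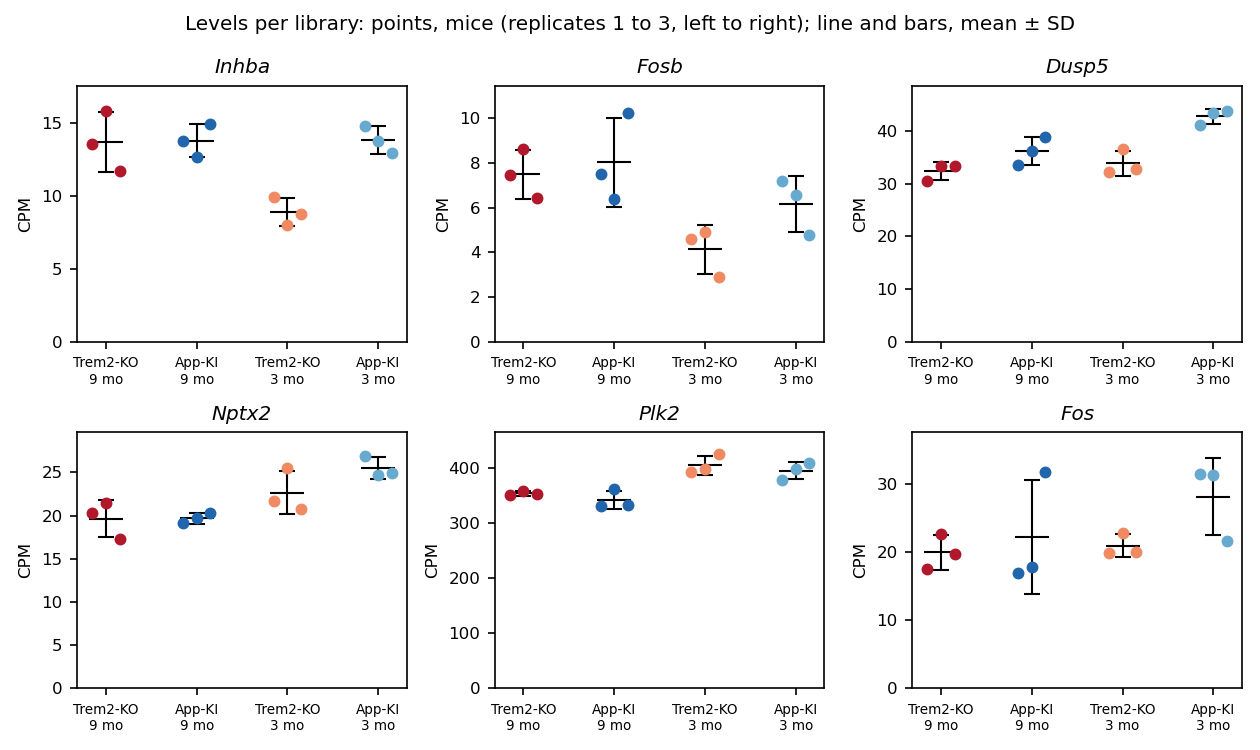
CPM (vertical, from 0) of Inhba, Fosb, Dusp5, Nptx2, Plk2 and Fos in each mouse (points) by group, with mean and SD of 3 mice. Inhba and Fosb are lowest in the Trem2-KO 3-month group, at means of 8.92 and 4.14 CPM, and Plk2 is lower at 9 than at 3 months in both genotypes.

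Whether the age difference itself differed between the genotypes was tested as an interaction, the 9 against 3 months change in Trem2-KO minus that in App-KI. No member was called by edgeR or by DESeq2, and edgeR called 0.266% of all genes. At an unadjusted p under 0.05, 5 members had a higher change in Trem2-KO (Inhba, Gadd45b, Nr4a1, Trib1 and Arl4d) and 0 a lower one, compared with 3.35% and 2.68% of all genes. The estimate was negative for 5 of 33 members and for 48.4% of all genes, with a members' median of 0.15. It equals the 9-month genotype difference minus the 3-month one, so it restates values given above and is not separate from them. For Inhba the interaction estimate was 0.64 ± 0.17 (adjusted p = 0.23), for Gadd45b 0.50 ± 0.16 (adjusted p = 0.42) and for Fosb 0.50 ± 0.30 (adjusted p = 0.94). So the age changes of Inhba and Fosb called in Trem2-KO mice and not in App-KI mice were not shown to differ between the genotypes. Without a filter on low counts Inhba had an adjusted p of 0.0403. Without App-KI 9-month replicate 3 the members' median was 0.23, and 0 members were called (0.163% of all genes). At an unadjusted p under 0.05, 15 members were then higher (3.31% of all genes). That library was singled out after its values were seen. Leaving out the highest App-KI 9-month mouse raises the interaction estimate by construction, so these counts show the weight of 1 mouse, not a finding. With all libraries, marker lists differed too. Of 5 thalamus and habenula markers, 1 was called higher. Endothelial and meningeal fibroblast markers each had 0 of 6 called, with 3 higher and 0 lower at an unadjusted p under 0.05. Of 13 microglial markers 9 were called lower, and of 8 astrocyte markers 1. The part of these lists in the members' interaction estimates was not tested.

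Of the 33 members, 5 were called in at least 1 of the 5 comparisons and 28 in none, where 12.8% of all tested genes were called in at least 1, a share close to that of the members. The others included Jun, at 95.1 to 117 CPM over all 12 libraries, Egr3, at 95.8 to 114 CPM, Rgs2, a regulator of G-protein signalling, at 46.7 to 57.1 CPM, and Ptgs2, the inducible cyclooxygenase of neurons, at 29.4 to 41.8 CPM. Their estimates lay between -0.11 and 0.10 in all 4 pairwise comparisons. Dusp1, Dusp4 and Dusp6 ran from 31.5 to 51.1 CPM, 13.8 to 21.3 CPM and 83.0 to 109.7 CPM. Dusp6, a cytoplasmic phosphatase of ERK, was lower without overlap in Trem2-KO than in App-KI mice at 3 months (unadjusted p = 0.085). Ier2 ran from 6.96 to 10.8 CPM, Btg2, an antiproliferative factor, from 27.2 to 37.8 CPM, Sik1, a kinase that restrains CREB coactivators, from 7.27 to 12.8 CPM and Arl4d, a small GTPase, from 6.33 to 10.3 CPM. Egr4 ran from 25.3 to 38.4 CPM, Junb from 43.2 to 62.6 CPM, Nr4a2 from 81.2 to 126 CPM and Nr4a3 from 25.99 to 36.8 CPM. An unadjusted p under 0.05 was reached by 18 members in at least 1 of the 5 comparisons and by the other 15 in none, compared with 40.3% of all tested genes in at least 1.

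A second list of activity genes was compared as well. Of 30 further genes that neurons or other cells induce early, 29 were tested. At 3 months 0 were called between Trem2-KO and App-KI mice, with 8 lower and 0 higher at an unadjusted p under 0.05 (6.02% and 5.21% of all tested genes) and a median log2 fold change of -0.13. In App-KI mice at 9 against 3 months 2 were called higher, Atf3, a stress-induced factor, by 1.29 ± 0.26 and Zfp36, an mRNA decay factor, by 0.89 ± 0.17, and 1 lower, Spry2, an inhibitor of receptor kinase signalling, by -0.45 ± 0.13 (adjusted p = 0.0036, 0.0017 and 0.034), where 3.95% of all genes were called higher and 2.71% lower. In Trem2-KO mice 4 were called higher at 9 months, Klf4 by 0.86 ± 0.17, Zfp36 by 0.73 ± 0.17, Atf3 by 1.11 ± 0.28 and Ccn1, where 5.68% of all genes were called higher. All of these genes are induced in glia or vessels as well as in neurons.

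Of 28 genes that carry the signal to these promoters (kinases, CREB and SRF factors, calcium channels and receptors), 2 were called with age in each genotype, a share near that of all tested genes (8.7% in Trem2-KO and 6.66% in App-KI). Camk4, a nuclear kinase that activates CREB, was lower at 9 months by -0.28 ± 0.08 in Trem2-KO mice and -0.34 ± 0.08 in App-KI mice (adjusted p = 0.027 and 0.0092). Rps6ka1, a kinase downstream of ERK that immune cells also express, was higher at 9 months by 0.37 ± 0.08 in Trem2-KO mice and 0.44 ± 0.08 in App-KI mice (adjusted p = 0.0052 and 0.0011). Between genotypes 1 was called, at 9 months (2.08% of all genes), where Hdac4, a repressor that leaves the nucleus with activity, was lower in Trem2-KO mice by -0.26 ± 0.06 (adjusted p = 0.024). None was called at 3 months by edgeR. At an unadjusted p under 0.05, 3 of the 28 were higher and 2 lower, compared with 5.21% and 6.02% of all tested genes.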

How the data were processed

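The authors deposited raw read counts per gene for 12 libraries, and the values are whole numbers without normalisation. Per the labels' protocols, total RNA was column-purified and libraries were made with the SMART-Seq mRNA LP kit. GRCm39, featureCounts 2.0.3, STAR 2.7.10a, DESeq2 1.36.0 and R 4.2.0 are listed in the submitters' processing notes. Not given in the sources used here are the annotation release, the strand setting and the rule for multi-mapping reads, which leaves counts of overlapping or antisense genes uncertain. Symbols were taken from GENCODE M21 (GRCm38), which matched 52073 of 56980 identifiers, and promoter sequences from RefSeq (GRCm38.p6).

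Low genes were removed with filterByExpr (minimum count 10, minimum total 15). Libraries were scaled by TMM, and genes were tested with the robust quasi-likelihood F-test of edgeR 4.0.16 (R 4.3.3) on 1 term per group over 12 libraries, with 8 residual degrees of freedom. P-values were adjusted by Benjamini-Hochberg over 19152 genes and called under 0.05. The self-check on simulated counts preceded the fit. The SE is the estimate divided by the root of the F statistic. CPM use scaled library sizes, and log2 CPM a prior count of 2. Replicate libraries differed by more than counting noise (chi-square per degree of freedom 3.04 to 16.98), so none was treated as a duplicate. The labels give each library its own mouse number and no batch.

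The members and all gene lists were chosen with earlier results of these data known. Values of every library are given for members called in any comparison, the 4 with the smallest p in each comparison, and Fos, Arc, Egr1, Npas4 and Bdnf. Other members are given by range or, where described singly, were chosen after their values were seen, and from other lists at most 4 genes with the smallest p are named. Alternatives were RLE size factors, DESeq2 1.42.0, no filter, at least 1 CPM in 3 libraries, only the groups compared, a choroid plexus score as covariate and each library left out. The limit set by a count of 0 covers counting error only.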

Additional observations from a re-analysis of the deposited data

How the results depend on the processing

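RLE size factors, a filter of at least 1 CPM in 3 libraries and the choroid plexus covariate left every count of members called within 1.5 times its main value. For Trem2-KO against App-KI at 3 months the members called were 2, against 6 with DESeq2, 6 with no filter on low counts and 5 with only the groups compared. For 9 against 3 months in App-KI they were 2, against 6 with no filter and 4 with only the groups compared. Members called there by DESeq2 included Nr4a1. For the interaction they were 0, against 1 with no filter, and the fit on only the groups compared was not run there. Leaving out each library gave 0 to 5 members called at 3 months, 0 to 1 at 9 months, 0 to 9 with age in App-KI, 1 to 3 with age in Trem2-KO and 0 to 0 for the interaction. The members' median log2 fold change then ran from -0.17 to -0.11 at 3 months, -0.10 to 0.11 at 9 months, -0.25 to -0.056 with age in App-KI, -0.05 to 0.01 with age in Trem2-KO and 0.10 to 0.23 for the interaction. The number of members at or above the 90th percentile of spread ran from 7 to 17. The estimate of Inhba, near 0 at 9 months, changed sign with no filter (0.0031) and over left-out libraries (-0.12 to 0.092), as did its age change in App-KI (-0.075 to 0.046). The cause of these shifts was not tested. Fits with fewer libraries also carry fewer degrees of freedom, and the part of this was not tested either. Over all genes, calls at 3 months numbered 113, against 259 with DESeq2, 347 with no filter, 218 with only the groups compared and 177 with the covariate. At 9 months they numbered 398, against 831 with no filter, and for the interaction 51, against 99 with DESeq2, 187 with no filter and 82 with the covariate. With age in App-KI they numbered 1276, and stayed within 1.5 times that with no filter and with only the groups compared. The fit with no filter tested 38139 identifiers in place of 19152. Leaving out each library gave 26 to 154 genes called at 3 months, 175 to 556 at 9 months and 788 to 1523 with age in App-KI. It gave 769 to 1920 with age in Trem2-KO and 29 to 76 for the interaction. No paired analysis was possible because the labels give each mouse its own number and groups share none. With 3 mice a group, differences in the most variable members were not detectable unless large.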
